A study of Mus musculus with 12 samples.

Results

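The genes of the 4 mouse Hox clusters were read across the 6 groups of the series. A gene was included if an array feature carried its symbol alone and that symbol was Hoxa, Hoxb, Hoxc or Hoxd followed by a number. This rule found 37 genes, out of 19938 genes with a feature of their own. Hoxb8 had only a feature shared with Hoxb7, which read at most 3.64 (log2) on any of the 12 arrays. The expression arrays covered embryoid bodies (EBs) at day 7 and the embryonic stem cells (ESCs) they were made from, with 3 genotypes in each state and 2 arrays labelled as biological replicates in each group. HP1βKO cells carried Cbx1-/-, HP1αKO cells carried Cbx5-/-, and WT cells carried neither. The labels name the line R1 for both knockouts and HM1 for WT, so that line and genotype cannot be told apart in a comparison with WT, although the methods call the WT line a littermate control. How many clones stand behind each knockout is not stated. ESCs of all genotypes were kept on feeder fibroblasts treated with mitomycin-C and sorted for SSEA1 on magnetic beads, EBs were formed in suspension after withdrawal of LIF, and no sort is described for them.

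Hox genes encode homeodomain transcription factors that give position along the head-to-tail axis and along the limb. They lie in clusters in which genes at one end are used early and anteriorly and genes at the other end late and posteriorly, and genes at matching places in the clusters form paralogue groups. In ESCs the clusters are known to be held silent by Polycomb complexes, and retinoic acid, Wnt and Cdx factors are known to open them during differentiation. HP1α and HP1β are chromodomain proteins that bind methylated histones and are best known from heterochromatin.

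Values are deposited log2 signals, and a signal of 45 (log2 5.49) is the study's own limit of detection. Differences are given ± limma's standard error with 2 arrays per group, and a gene is called where its p, adjusted over all 19938 genes, was under 0.05. The median signal over all genes lay between 5.27 and 5.34 on the EB arrays and between 5.15 and 5.21 on the ESC arrays. Cbx1 was lower on all 4 HP1βKO arrays than on the other 8. Cbx5 read 9.20 and 9.21 in EB HP1αKO, against 10.4 and 10.4 in EB WT, but in ESCs it opposed the label of the library labelled ESC HP1αKO 2, where it read 9.995, and of the library labelled ESC WT 2, where it read 8.29. Results that rest on these 2 libraries are given with and without them. The arrays measured bulk RNA, so fewer cells of a type and less RNA per cell cannot be told apart.

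In ESCs all 37 Hox genes lay under the limit of detection on all 6 arrays. The highest single value was 5.40, for Hoxb1 on 1 ESC HP1βKO array. No Hox gene was called in any of the 3 comparisons between ESC groups by limma. Against all genes, 0% were called between ESC HP1βKO and ESC WT, 0% between ESC HP1αKO and ESC WT, and 0.00502% between ESC HP1βKO and ESC HP1αKO. At an unadjusted p under 0.05 these comparisons held 0, 0 and 2 Hox genes, against 1046, 360 and 936 of all 19938 genes, and the largest differences were 0.37, 0.38 and 0.41 in size. Without the 2 libraries whose Cbx5 opposed the label, the 3 counts of called Hox genes were again 0. Since both group means were under the limit for each gene, these arrays set no order among the ESC groups.

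In WT cells, the largest rises with differentiation were those of anterior Hoxb genes. In EB WT against ESC WT, 7 of the 37 genes were called, all of them higher, against 12.6% of all genes called higher and 20.7% called in either direction. Hoxb2, a gene of the hindbrain, read 7.02 and 7.62 in EB WT, against 4.40 and 4.57 in ESC WT (2.84 ± 0.28, adjusted p = 0.000123). Hoxb4, known for its part in the neck region and in blood stem cells, read 5.58 and 5.44 in EB WT, against 4.28 and 4.02 in ESC WT (1.36 ± 0.22, adjusted p = 0.00205). Hoxb2 exceeded the limit of detection on both EB WT arrays and Hoxb4 on 1. Hoxb1, an early hindbrain gene, exceeded it on the other EB WT array, with 5.46 and 5.66 in EB WT, against 5.32 and 4.97 in ESC WT, and was not called. Hoxb5, Hoxb6, Hoxd1, Hoxd9 and Hoxd10 rose by 0.66 to 0.84 with all values under the limit. Of the 9 Hoxb genes 4 were called, of the 9 Hoxd genes 3, and of the 10 Hoxa and 9 Hoxc genes none. Without the 2 doubted ESC libraries, 6 Hox genes were called in this fit. Leaving out EB WT 1, EB WT 2 or ESC WT 2 left 3, 4 and 4. The gene lost without the 2 doubted libraries was Hoxd10 (0.58, adjusted p = 0.0527), which passed in 1 of 4 fits with an array left out.

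The same comparison was made within each knockout line, and the lists of called genes differed in length. EB HP1βKO had 20 Hox genes called against ESC HP1βKO, all higher, with 12.6% of all genes called higher and 20.7% called. EB HP1αKO had 7 called against ESC HP1αKO, all higher, with 15.1% of all genes called higher and 24.8% called. Hoxb2, Hoxb4, Hoxd9 and Hoxd10 were called in all 3 genotypes, Hoxd10 in WT with the loss just given. Hoxb2 rose by 1.46 ± 0.28 in HP1βKO cells and by 2.53 ± 0.28 in HP1αKO cells. Hoxd10, expressed in the lumbar cord and hindlimb, rose by 2.53 ± 0.15 in HP1βKO cells and by 1.10 ± 0.15 in HP1αKO cells. Called in HP1βKO cells alone among the 3 lines were Hoxa9, Hoxa10, Hoxa13, Hoxc9, Hoxc10, Hoxd11 and Hoxd13, of paralogue groups 9 to 13. Hoxa5, Hoxa7, Hoxc8, Hoxd3 and Hoxd4, of lower paralogue number, were also called in that line alone. Hoxa11, Hoxc6 and Hoxd8 were called in both knockout lines but not in WT. Without the 2 doubted ESC libraries 20 were called in HP1βKO cells and 6 in HP1αKO cells. The HP1αKO count turned on single arrays, with 3 called without EB HP1αKO 1, 12 without ESC HP1αKO 1 and 4 without ESC HP1αKO 2. Whether each rise differed between lines was tested only for HP1βKO against WT, as given further on.

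**Figure D1:**
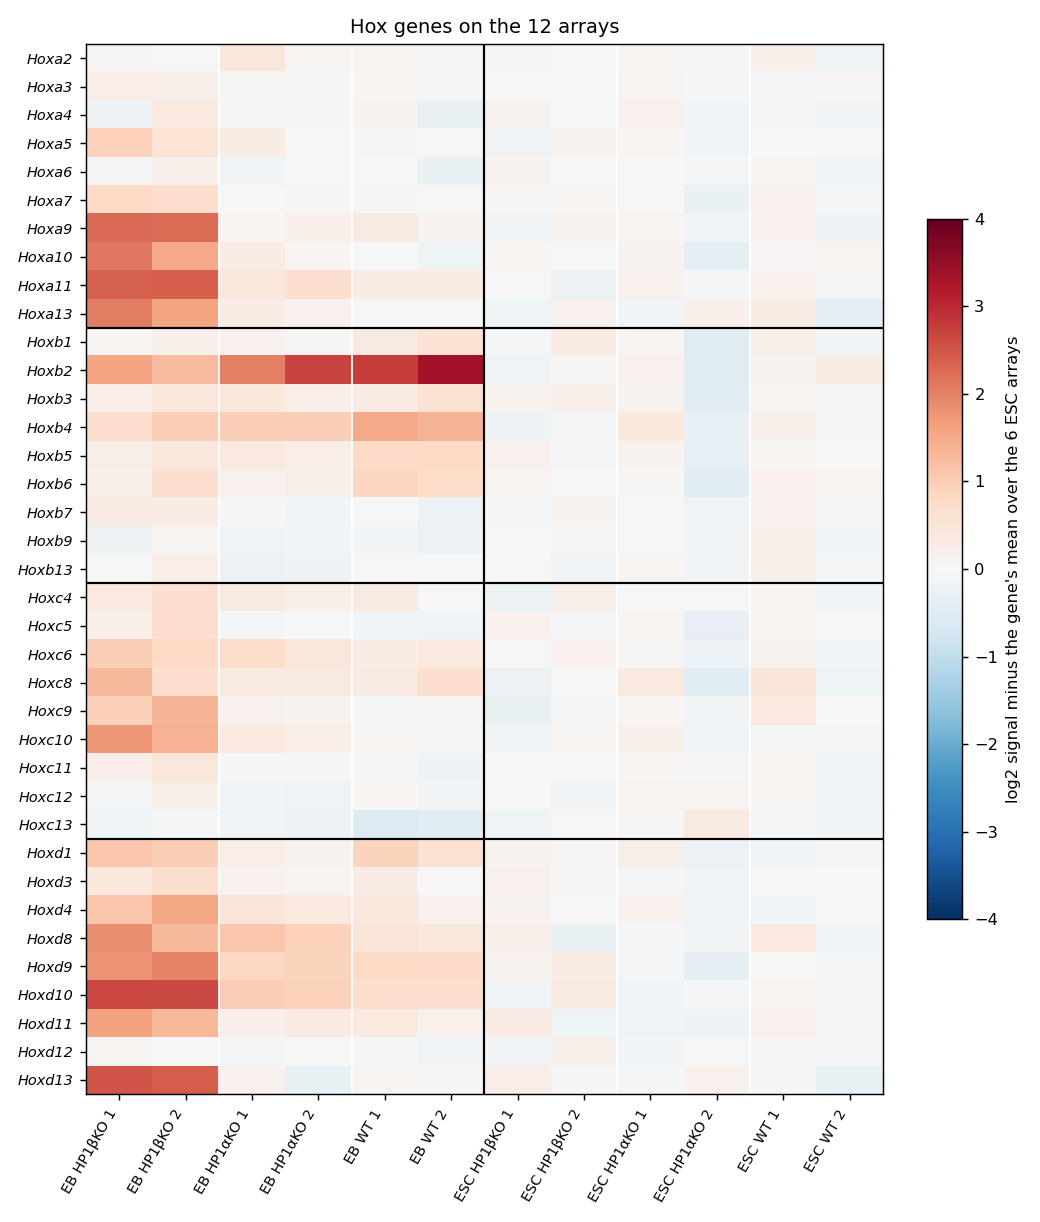
Each row is a Hox gene and each column an array, with EB arrays left of the ESC arrays, and the colour gives the log2 signal minus that gene's mean over the 6 ESC arrays. Both EB HP1βKO arrays are dark at the bottom of the Hoxa and Hoxd blocks, where Hoxa9 to Hoxa13 and Hoxd8 to Hoxd13 lie except Hoxd12, while Hoxb2 is darkest in EB WT.

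In EBs, the HP1βKO line had higher signals than WT of posterior Hox genes of the Hoxa, Hoxc and Hoxd clusters and a lower signal of Hoxb2. Of the 37 Hox genes, 14 were called between EB HP1βKO and EB WT, which is 37.8%, against 2.13% of all genes. Of these 13 were higher, against 1.08% of all genes, and 1 was lower, against 1.05% of all genes. The median difference of the 37 genes was 0.44, and that of all genes 0.03. On the EB HP1βKO arrays 10 and 7 Hox genes exceeded the limit of detection, on the EB HP1αKO arrays 1 and 1, and on the EB WT arrays 2 and 2. Fitted on the 6 EB arrays alone, 21 Hox genes were called, 18 higher and 3 lower, against 8.56% of all genes, and all 14 remained among them. For the other alternative fits, in this and the other paragraphs, the share of all genes called is not given. A changed count of Hox genes there may go with a change over all genes. Without the 2 doubted ESC libraries, which enter through the shared spread, 17 were called, 15 higher and 2 lower. With each of the 4 arrays compared left out in turn, 9 were called without EB HP1βKO 1, 9 without EB HP1βKO 2, 10 without EB WT 1 and 7 without EB WT 2. None of these 4 fits lost Hoxd13, Hoxd10, Hoxd9, Hoxc10, Hoxa11, Hoxa10 or Hoxa9, whereas Hoxa13 and Hoxd11 passed in 2, Hoxb2, Hoxc9 and Hoxd4 in 1, and Hoxa7 and Hoxd8 in 0.

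The Hoxd cluster held the widest response, with 6 of its 9 measured genes higher and a median difference of 1.11. Hoxd13, which patterns the digits and the end of the gut, read 5.93 and 5.85 in EB HP1βKO, 3.57 and 3.11 in EB HP1αKO, and 3.53 and 3.47 in EB WT. Both EB HP1βKO arrays stood above all 10 other arrays, and the difference from EB WT was 2.39 ± 0.18 (adjusted p = 0.000128). Its neighbour Hoxd12, also a digit gene, read 3.26 and 3.21 in EB HP1βKO, 3.14 and 3.18 in EB HP1αKO, and 3.15 and 3.05 in EB WT. Hoxd12 lies between Hoxd13 and Hoxd11, both of which were called, yet its difference was 0.14 with an interval of -0.15 to 0.43 (adjusted p = 0.855). To show how far these neighbours differ in base composition, the 250 bases before the start site of each are printed from the RefSeq promoter table (build GRCm38.p6, both on the plus strand, Hoxd13 at chr2:74667975-74668224 and Hoxd12 at chr2:74674763-74675012), with each CG dinucleotide in capitals.
Hoxd13: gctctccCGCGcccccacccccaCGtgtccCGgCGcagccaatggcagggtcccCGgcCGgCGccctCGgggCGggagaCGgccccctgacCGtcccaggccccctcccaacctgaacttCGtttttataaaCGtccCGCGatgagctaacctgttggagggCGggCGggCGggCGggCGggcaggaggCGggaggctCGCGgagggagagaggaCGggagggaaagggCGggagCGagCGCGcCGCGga
Hoxd12: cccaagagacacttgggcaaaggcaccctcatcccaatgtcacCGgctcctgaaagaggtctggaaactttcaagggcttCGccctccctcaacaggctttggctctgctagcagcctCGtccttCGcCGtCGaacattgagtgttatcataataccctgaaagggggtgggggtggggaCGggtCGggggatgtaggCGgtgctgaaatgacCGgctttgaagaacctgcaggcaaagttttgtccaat
The Hoxd13 stretch holds 31 CG dinucleotides and the Hoxd12 stretch 10. This pair does not stand for the cluster. Among the other called Hoxd genes the same stretch holds 3 for Hoxd4, 6 for Hoxd8, 13 for Hoxd9 and 20 for Hoxd10. Hoxd11 has 2 such stretches, with 2 and 20. Among the other uncalled Hoxd genes it holds 12 for Hoxd3 and 24 for Hoxd1. The series holds no chromatin measurement at either, and the arrays do not show which start site was used.

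Base composition was also read across the clusters. Of the 37 Hox genes, 21 had a promoter in the RefSeq table, in windows of 300 bases that reach from 250 bases before the start to just after it. The 13 windows of 11 genes that were higher in EB HP1βKO held a median of 15 CG dinucleotides (range 4 to 45), the 10 windows of genes that were not called held 17 (range 9 to 29), and all 32851 promoters of the table held 7. The Cdx-type core TTTATG, read on both strands, stood in 3 of the 13 windows, in 1 of the 10 and in 11.85% of all promoters. The joint Hox and Pbx motif TGATTNAT, read the same way, stood in 1 window of each set and in 3.22% of all promoters, and the retinoic acid receptor element, AGGTCA repeated after 5 bases, in 0 of either set and in 0.01% of all. Matches are letters in these windows and show no binding.

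The other called Hoxd genes were also highest on both EB HP1βKO arrays, an order over EB WT that picking them by their call makes likely. Hoxd10 read 6.51 and 6.48 in EB HP1βKO, 4.83 and 4.78 in EB HP1αKO, and 4.54 and 4.52 in EB WT (1.97 ± 0.15, adjusted p = 0.000135). Hoxd9, a lumbosacral gene, read 6.14 and 6.32 in EB HP1βKO, 5.16 and 5.21 in EB HP1αKO, and 5.13 and 5.11 in EB WT (1.11 ± 0.13, adjusted p = 0.00233). Hoxd11, needed for the forearm bones, read 6.08 and 5.81 in EB HP1βKO, 4.68 and 4.81 in EB HP1αKO, and 4.86 and 4.65 in EB WT (1.19 ± 0.17, adjusted p = 0.00715). For these 3 genes both EB HP1βKO arrays lay above the limit of detection and all 4 other EB arrays below it. Hoxd8 read 5.66 and 5.09 in EB HP1βKO, 4.92 and 4.72 in EB HP1αKO, and 4.30 and 4.23 in EB WT (1.11 ± 0.23, adjusted p = 0.0375). Here the groups ran in 3 steps without overlap, and the step between EB HP1βKO and EB HP1αKO was not called (0.55 ± 0.23, adjusted p = 0.376). Hoxd4, a hindbrain and neck gene, read 4.73 and 5.16 in EB HP1βKO, 4.14 and 4.03 in EB HP1αKO, and 4.05 and 3.81 in EB WT (1.02 ± 0.17, adjusted p = 0.0154). All values of Hoxd4 lay under the limit, so its size is uncertain.

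In the Hoxa cluster 5 of 10 measured genes were higher, including the 4 measured genes of paralogue groups 9 to 13. Hoxa9, known from posterior trunk patterning and blood progenitors, read 6.59 and 6.56 in EB HP1βKO, 4.40 and 4.54 in EB HP1αKO, and 4.69 and 4.46 in EB WT (2.00 ± 0.16, adjusted p = 0.000161). Hoxa11, which shapes the forearm and the uterus, read 5.82 and 5.86 in EB HP1βKO, 3.93 and 4.15 in EB HP1αKO, and 3.76 and 3.77 in EB WT. Its difference of 2.08 ± 0.14 had the lowest adjusted p of the 37 genes (6.61e-05), and both Hoxa9 and Hoxa11 exceeded the limit on the EB HP1βKO arrays alone. Hoxa10, which suppresses rib formation in the lumbar region, read 5.42 and 4.83 in EB HP1βKO, 3.61 and 3.38 in EB HP1αKO, and 3.29 and 3.14 in EB WT (1.91 ± 0.21, adjusted p = 0.00148). Hoxa13, a gene of the digits, hindgut and umbilical vessels, read 5.62 and 5.17 in EB HP1βKO, 3.87 and 3.74 in EB HP1αKO, and 3.60 and 3.60 in EB WT (1.80 ± 0.24, adjusted p = 0.00417). The EB HP1βKO replicates of Hoxa10 and Hoxa13 were farther apart than those of Hoxa9 and Hoxa11, though they did not overlap with any other array. Hoxa7, a trunk gene, read 5.18 and 5.07 in EB HP1βKO, 4.39 and 4.43 in EB HP1αKO, and 4.31 and 4.34 in EB WT (0.80 ± 0.13, adjusted p = 0.0115). Among the uncalled Hoxa genes, Hoxa5 came nearest to the threshold (0.73 ± 0.16, adjusted p = 0.0587), and Hoxa2, Hoxa3, Hoxa4 and Hoxa6 differed by 0.00 to 0.23.

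The Hoxc cluster had 2 of 9 genes higher, both thoracolumbar genes expressed in spinal motor neurons. Hoxc9 read 5.06 and 5.48 in EB HP1βKO, 4.29 and 4.25 in EB HP1αKO, and 4.01 and 4.15 in EB WT (1.19 ± 0.18, adjusted p = 0.00935). Hoxc10 read 4.97 and 4.64 in EB HP1βKO, 3.63 and 3.51 in EB HP1αKO, and 3.31 and 3.15 in EB WT (1.57 ± 0.17, adjusted p = 0.000997). For both genes the EB HP1βKO arrays were the highest of the 12, and no array passed the limit of detection. The difference was positive for all 9 Hoxc genes, and the 7 that were not called lay between 0.11 (Hoxc12) and 0.56 (Hoxc5).

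The Hoxb cluster held 1 gene called lower and none called higher. Hoxb2 read 5.85 and 5.52 in EB HP1βKO, 6.30 and 6.96 in EB HP1αKO, and 7.02 and 7.62 in EB WT. All 6 values exceeded the limit of detection, the groups ran in 3 steps without overlap, and EB HP1βKO was lower than EB WT (-1.64 ± 0.28, adjusted p = 0.016). The largest adjusted p of Hoxb2 with 1 array left out was 0.185. Of the other 8 Hoxb genes, Hoxb4 read 4.75 and 5.06 in EB HP1βKO, 5.08 and 5.05 in EB HP1αKO, and 5.58 and 5.44 in EB WT, a difference of -0.61 ± 0.22 that was not called (adjusted p = 0.318). Hoxb7, Hoxb9 and Hoxb13 differed by 0.44, 0.14 and 0.15, and none was called. On the 6 EB arrays alone Hoxb4 and Hoxb5 passed as lower and Hoxb7 as higher.

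**Figure D2:**
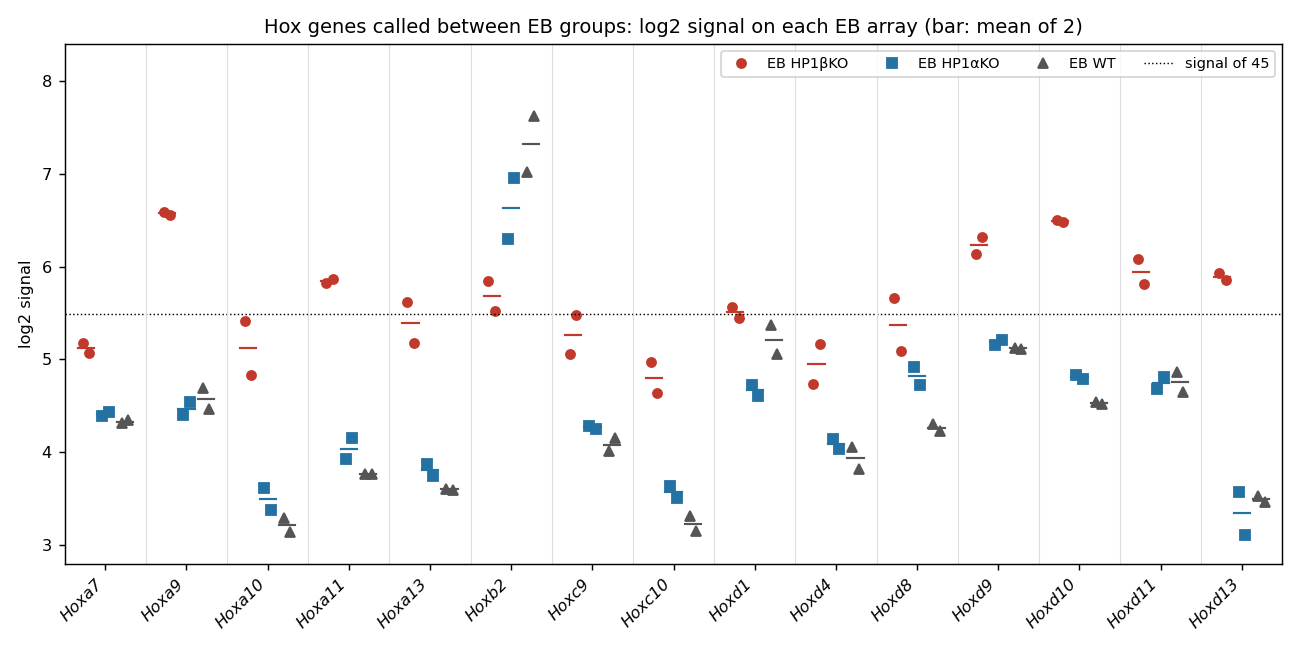
The log2 signal on each of the 6 EB arrays is plotted for the 15 Hox genes called in a comparison between EB groups, with a bar at the mean of 2 arrays and a dotted line at a signal of 45. For the 13 genes called higher than in EB WT, the EB HP1βKO arrays lie above all other EB arrays. These genes were picked by that call, so their place above EB WT is no added support. The share of all genes with such an order is not given. Their mean differences from EB WT are 0.80 to 2.39. The EB HP1βKO arrays also lie highest for Hoxd1, which was not called against EB WT, and lowest for Hoxb2.

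Ordered by paralogue number, the called genes sat toward the posterior end. Of the 16 genes of paralogue groups 9 to 13, 10 were higher in EB HP1βKO, all 16 differences were positive, and the median was 1.19. Of the 10 genes of groups 5 to 8, 2 were higher with a median of 0.52, and of the 11 genes of groups 1 to 4, 1 was higher and 1 lower with a median of 0.16. Group 10 was called in full, with Hoxa10, Hoxc10 and Hoxd10 between 1.57 and 1.97. Group 9 had 3 of 4 called, Hoxb9 being the exception, group 11 had 2 of 3, and group 13 had Hoxa13 and Hoxd13 but neither Hoxb13 nor Hoxc13. Both measured genes of group 12 were close to 0, Hoxc12 at 0.11 and Hoxd12 at 0.14. Paralogous genes share homeobox sequence, and the sources used here do not say whether any probe reads more than 1 of them, or reads an antisense transcript. Of the 13 risers, 6 had an EB HP1βKO mean above the limit and an EB WT mean under it, and 7 had both means under it. Where a mean lay under the limit the size of the difference is uncertain.

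**Figure D3:**
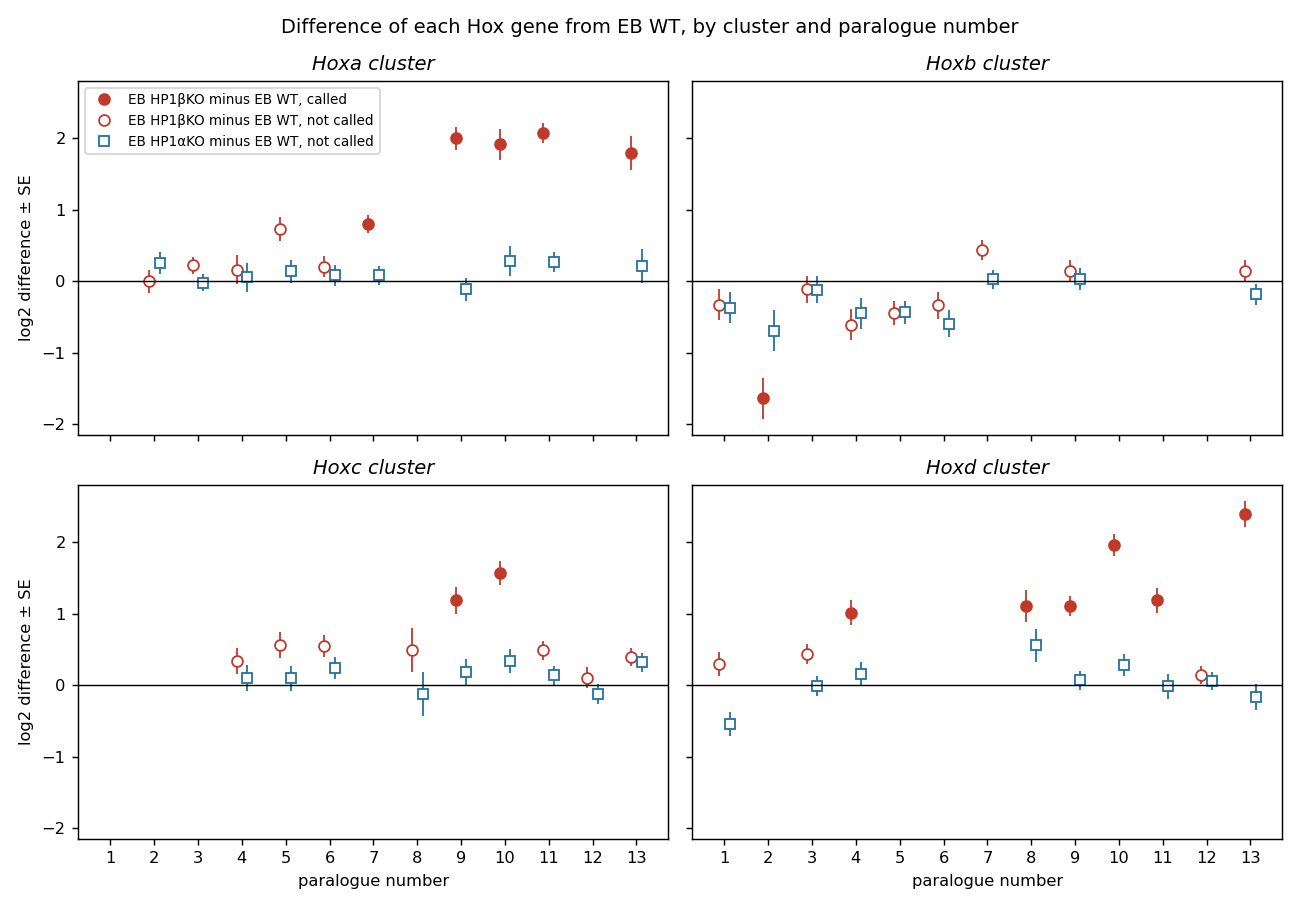
Log2 differences from EB WT with their standard errors are plotted against paralogue number for each cluster, circles for EB HP1βKO and squares for EB HP1αKO, filled where called. Filled circles reach 2.08 in Hoxa and 2.39 in Hoxd and are below 0 only at Hoxb2 (-1.64), and no square is filled.

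The HP1αKO line had no called Hox gene in EBs against WT. Between EB HP1αKO and EB WT, 0 of 37 passed limma's test, against 0.878% of all genes, and the lowest adjusted p was 0.314. At an unadjusted p under 0.05 there were 6, against 1382 of all 19938 genes, namely Hoxb2 (-0.69 ± 0.28), Hoxb5 (-0.44 ± 0.17), Hoxb6 (-0.59 ± 0.19), Hoxd1 (-0.55 ± 0.17), Hoxc13 (0.32 ± 0.13) and Hoxd8 (0.56 ± 0.23). On the 6 EB arrays alone 1 passed, Hoxd1, which was lower, against 5.04% of all genes, and with array weights 3 passed, all of them lower. The interval of the difference was -0.57 to 0.25 for Hoxd13, -0.47 to 0.25 for Hoxa9, and -0.04 to 0.59 for Hoxa11, each short of the change in EB HP1βKO. The median over the 9 Hoxb genes was -0.37 in EB HP1αKO and -0.33 in EB HP1βKO, whereas over the 9 Hoxd genes it was 0.06 in EB HP1αKO and 1.11 in EB HP1βKO. These comparisons share the EB WT arrays.

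The knockouts were also set against each other, which does not involve the WT line. Between EB HP1βKO and EB HP1αKO 13 Hox genes were called, all of them higher in EB HP1βKO, against 0.978% of all genes higher and 2.7% in either direction. They comprised 12 of the 13 risers, all but Hoxd8, together with Hoxd1. Without EB HP1αKO 1 the count was 7 and without EB HP1αKO 2 it was 8. Hoxd13 differed by 2.55 ± 0.18 (adjusted p = 4.83e-05), Hoxa9 by 2.11 ± 0.16 (adjusted p = 7.79e-05) and Hoxa11 by 1.80 ± 0.14 (adjusted p = 9.41e-05). Hoxd1, a gene of sensory neurons, read 5.57 and 5.45 in EB HP1βKO, 4.73 and 4.60 in EB HP1αKO, and 5.37 and 5.06 in EB WT. EB HP1βKO and EB WT lay close together and EB HP1αKO lay lowest, so Hoxd1 was called between the knockouts (0.84 ± 0.17, adjusted p = 0.0262) whereas its difference from EB WT was 0.30 ± 0.17 (adjusted p = 0.667). With each of the 4 arrays of the knockouts left out in turn, the call on Hoxd1 passed in 0 fits (highest adjusted p 0.254). Hoxb2 was not called between the knockouts (-0.95 ± 0.28, adjusted p = 0.156).

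The 22 Hox genes that were called in none of the 3 EB comparisons read between 2.86 and 5.66 on the EB arrays, and 2 of them, Hoxb1 and Hoxb4, exceeded the limit of detection on at least 1. Their differences between EB HP1βKO and EB WT ran from -0.61 to 0.73, and those between EB HP1αKO and EB WT from -0.59 to 0.32.

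The difference between HP1βKO and WT was larger in EBs than in ESCs for 7 Hox genes by a test of these 2 differences against each other. All 7 were positive, against 0.416% of all genes positive and 0.818% in either direction. They were Hoxa9, Hoxa10, Hoxa11, Hoxc9, Hoxc10, Hoxd10 and Hoxd13. The EB difference minus the ESC difference ran from 1.55 ± 0.26 for Hoxc9 to 2.26 ± 0.20 for Hoxa11. In ESCs the same genes differed by -0.37 to 0.27 between HP1βKO and WT, with all signals under the limit. Without the 2 ESC libraries whose Cbx5 opposed the label, 12 genes passed, and 4 passed without EB WT 1 or without EB WT 2. Over 8 fits with 1 array left out, Hoxa10 passed in 3, Hoxc9 in 4 and Hoxc10 in 4, and the other 4 genes in all 8.

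Genes that flank or lie within the clusters were compared in the same way. Of 23 measured flanking genes 1, Calcoco2, was higher in EB HP1βKO than in EB WT, against 1.08% of all genes. The 1 that was lower, against 1.05% of all genes, was Cbx1, whose deletion in this line set that call. The named noncoding RNAs of the clusters, 10 of which were measured, had 0 called between EB HP1βKO and EB WT and differences of -0.16 to 0.38, and on each array 1 of the 10 exceeded the limit of detection. Evx2, which adjoins Hoxd13, read 5.22 and 5.45 in EB HP1βKO and 5.13 and 4.85 in EB WT (0.35 ± 0.15, adjusted p = 0.446). Evx1, which adjoins Hoxa13, read 3.96 and 4.30 in EB HP1βKO and 4.07 and 3.96 in EB WT (0.11 ± 0.15, adjusted p = 0.919). Both Evx genes lay under the limit of detection on all 12 arrays, so little can be read from them. The deleted HP1 genes themselves lie near Hox clusters: in the annotation Cbx1 is 3 protein-coding genes beyond Hoxb1 on chromosome 11, and Cbx5 is 2 beyond Hoxc4 on chromosome 15. Cbx1, the deleted gene, read 7.73 and 7.67 in EB HP1βKO and 9.36 and 9.45 in EB WT. Between Hoxb1 and Cbx1, Skap1 and Snx11 differed by 0.11 and 0.01. At the other end of that cluster Calcoco2 read 6.45 and 6.42 in EB HP1βKO, 3.68 and 3.54 in EB HP1αKO, and 5.32 and 5.36 in EB WT, higher in EB HP1βKO (1.10 ± 0.23, adjusted p = 0.0447) and lower in EB HP1αKO (-1.73 ± 0.23, adjusted p = 0.00871).

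Genes known to control Hox expression were read from lists. Over all genes, 1.08% were called higher and 1.05% lower in EB HP1βKO against EB WT. Of 18 measured genes of retinoic acid synthesis, breakdown, binding and reception, 3 were higher in EB HP1βKO and 2 lower, and the list's median was 0.19. Aldh1a2, which makes retinoic acid in the trunk, read 8.45 and 8.30 in EB HP1βKO, 5.82 and 5.95 in EB HP1αKO, and 5.68 and 5.82 in EB WT (2.62 ± 0.16, adjusted p = 4.3e-05). Dhrs3, which turns retinaldehyde back to retinol, read 7.70 and 7.55 in EB HP1βKO, 6.69 and 6.60 in EB HP1αKO, and 6.06 and 6.19 in EB WT (2.82-fold, adjusted p = 0.0092). Both were highest in EB HP1βKO. Rarb, a retinoic acid receptor gene that is also a known target, read 8.14 and 8.01 in EB HP1βKO, 7.77 and 7.85 in EB HP1αKO, and 6.96 and 6.84 in EB WT. Unlike the Hox genes, Rarb was called in both knockouts against EB WT, by 1.17 ± 0.15 in EB HP1βKO (adjusted p = 0.00347) and by 0.91 ± 0.15 in EB HP1αKO (adjusted p = 0.0251). The binding proteins Crabp1 (-1.49 ± 0.17) and Crabp2 (-1.47 ± 0.25) were lower in EB HP1βKO.

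The Cdx genes, which drive posterior Hox genes in the extending trunk, were not called. Cdx2 read 7.41 and 7.02 in EB HP1βKO, 6.11 and 5.90 in EB HP1αKO, and 6.14 and 6.60 in EB WT (0.84 ± 0.33, adjusted p = 0.387). Cdx1 differed by 0.31 ± 0.17 and Cdx4, near background, by 0.06 ± 0.14. Of 17 measured genes of axial elongation 2 were called, and both were lower in EB HP1βKO. Lin28a, an RNA-binding protein whose decline accompanies the change from trunk to tail Hox genes in the mouse, read 7.82 and 7.81 in EB HP1βKO, 9.12 and 8.99 in EB HP1αKO, and 8.94 and 8.93 in EB WT (-1.13 ± 0.15, adjusted p = 0.00349). Its relative Lin28b read 6.13 and 5.81 in EB HP1βKO, 7.54 and 7.51 in EB HP1αKO, and 7.29 and 7.38 in EB WT (-1.36 ± 0.16, adjusted p = 0.00175). Of 8 measured hindbrain regulators Otx2 (-2.20 ± 0.27), a forebrain and midbrain factor, and Zbtb16 (-0.70 ± 0.14) were lower. Of 32 measured Polycomb and trithorax genes only Scmh1, a Polycomb component, was called (1.16 ± 0.20), against 2.13% of all genes. Of 8 Hox cofactors of the Pbx, Meis and Pknox families 0 were called, with differences of -0.69 to 0.83.

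Genes of the posterior body that act with or under Hox genes were called in both directions. Of all genes 1.08% were called higher and 1.05% lower in EB HP1βKO against EB WT. Tbx4, the hindlimb and allantois factor, read 8.79 and 8.25 in EB HP1βKO, 6.85 and 6.74 in EB HP1αKO, and 5.11 and 4.94 in EB WT. It was higher in both knockouts than in EB WT, by 3.50 ± 0.21 in EB HP1βKO (adjusted p = 3.6e-05) and by 1.77 ± 0.21 in EB HP1αKO (adjusted p = 0.00376). Pitx1, its upstream factor in the hindlimb, read 8.93 and 8.97 in EB HP1βKO, 7.09 and 6.89 in EB HP1αKO, and 6.75 and 6.75 in EB WT (2.19 ± 0.17, adjusted p = 0.00013). Tbx2 (1.00 ± 0.16) and Epha3 (0.97 ± 0.15) were also higher in EB HP1βKO. Epha3 read 4.70 and 4.96 in EB HP1βKO, 4.49 and 4.80 in EB HP1αKO, and 3.80 and 3.93 in EB WT. Like Tbx4, Epha3 was also called higher in EB HP1αKO than in EB WT. Tbx5, the forelimb and heart factor (-0.72 ± 0.15), Shh (-0.83 ± 0.15), Fgf10 (-0.86 ± 0.18) and Bmp2 (-1.46 ± 0.17) were lower, so that 4 of these 18 genes were higher and 4 lower. Shh was called in the opposite direction, higher, in EB HP1αKO against EB WT. Epha3 and Tbx5 lay under the limit of detection on every EB array, so the size of their differences is uncertain.

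**Figure D4:**
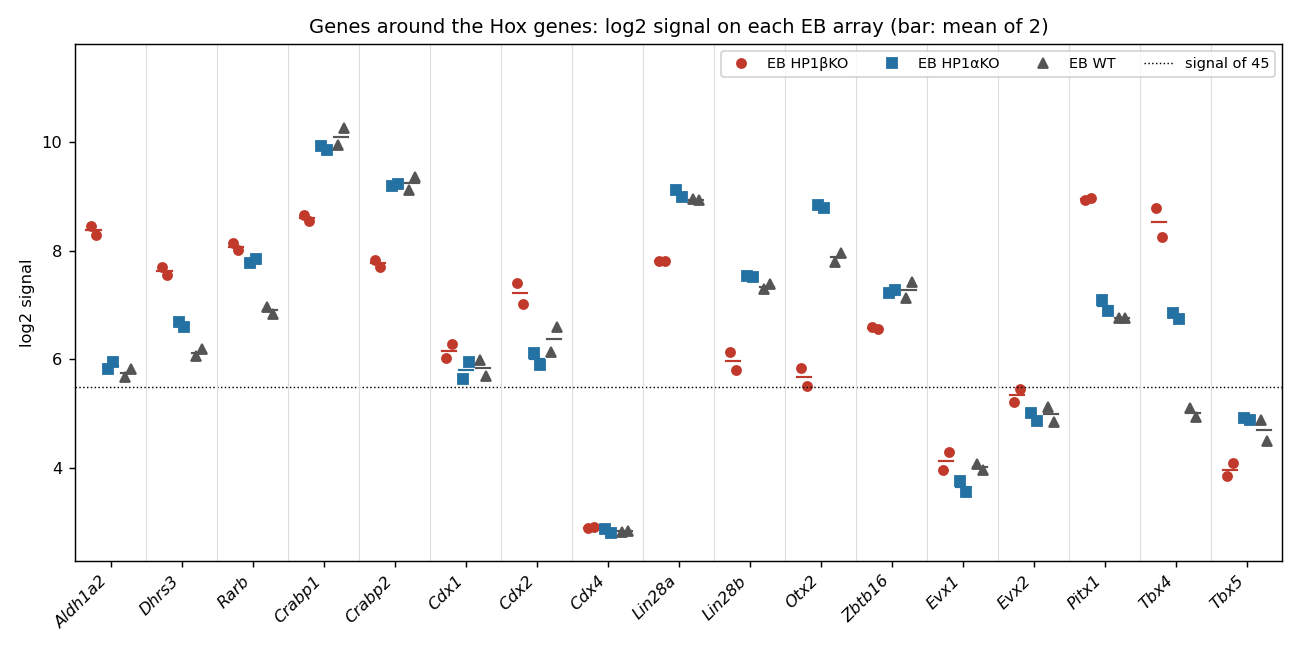
The log2 signal on each EB array is plotted for genes that make or read retinoic acid, Cdx and Lin28 genes, hindbrain factors, the Evx neighbours and limb factors, with a bar at the mean of 2 arrays and a dotted line at a signal of 45. Aldh1a2 (8.45 and 8.30), Pitx1 and Tbx4 stand highest and Lin28a, Lin28b and Otx2 lowest in EB HP1βKO, whereas Cdx4 is near background throughout.

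Markers of other cell types differed between the same groups. The calls in EB HP1βKO against EB WT stand beside 1.08% of all genes called higher and 1.05% lower. Of 11 measured fibroblast markers Col5a1 was called higher in EB HP1βKO (0.74 ± 0.15), all 11 differences were positive, and their summed signal was 10808 and 10291 in EB HP1βKO, 9070 and 9381 in EB HP1αKO, and 6898 and 7034 in EB WT. The largest of these differences was 2.31, for Col3a1, which was not called. It read 10.61 and 10.43 in EB HP1βKO, 9.68 and 9.89 in EB HP1αKO, and 8.09 and 8.34 in EB WT. Its ESC WT values of 7.10 and 5.18 lay far apart and enter the shared spread. The fibroblast genes Lox and Fap were near background on all 6 EB arrays, at 3.10 to 3.38 and 2.38 to 2.70, and Thy1 lay at 4.38 to 4.92. Of 10 markers of limb and allantois mesenchyme Tbx4 and Pitx1 were higher and Tbx5 lower, and their summed signal was 3111 and 2613 in EB HP1βKO, 1573 and 1430 in EB HP1αKO, and 1454 and 1695 in EB WT. Of 7 neural tube markers Pax3, Zic1, Pax6 and Tubb3 were lower in EB HP1βKO, with summed signals of 159 and 169 in EB HP1βKO, 272 and 275 in EB HP1αKO, and 324 and 372 in EB WT. Of the 7, 1 exceeded the limit of detection on each EB HP1βKO array, 3 and 2 on the EB HP1αKO arrays, and 4 on each EB WT array. Pax6 read 3.98 and 4.04 in EB HP1βKO and 4.95 and 5.17 in EB WT, all under the limit. The size of these falls, and of the fall in the sum, is therefore uncertain. Of 5 ESC markers Pou5f1 (1.34 ± 0.14, adjusted p = 0.000922) and Nanog (interval of the difference 0.64 to 1.76, adjusted p = 0.0408) were higher in EB HP1βKO than in EB WT, with summed signals of 1445 and 1197 in EB HP1βKO, 1194 and 1172 in EB HP1αKO, and 852 and 1023 in EB WT. Most of the EB HP1αKO sum was Sox2, which read 9.98 and 9.95 there and 8.83 and 9.09 in EB WT. Pou5f1 was called lower in EB HP1αKO than in EB WT, and 1 of the 5 differences was positive. The median difference of the 5 from EB WT was -1.19 in EB HP1αKO and 0.73 in EB HP1βKO. Against EB HP1αKO, 3 of these 5 were higher in EB HP1βKO and 1, Sox2, was lower. Of 6 endoderm markers Gata6 was higher (0.81 ± 0.14), of 4 blood and endothelium markers Hbb-bh1 was lower (-0.95 ± 0.13), of 5 cardiac markers 4 were lower, and of 6 paraxial mesoderm markers 0 were called. Hbb-bh1 was also called lower in EB HP1αKO than in EB WT (-1.28). The summed cardiac signal was 865 and 581 in EB HP1βKO, 10901 and 10790 in EB HP1αKO, and 5826 and 5266 in EB WT. The part of these cell types in the Hox result was not tested.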

How the data were processed

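Transcript levels had been measured on 12 Affymetrix arrays. The authors deposited RMA log2 signals for 35556 features, made with Affymetrix Expression Console according to the submitters' processing notes, so background correction and quantile normalization preceded deposition. The methods name an exon array, whereas the feature numbers match the Mouse Gene 1.0 ST annotation. By the platform annotation 21789 features name 1 gene, 1621 name several and 12146 name none. A gene was read from its brightest single-gene feature by mean log2 value, which gave 19938 genes, and no signal filter was set. Array number, not read depth, limits the precision.

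Differences were fitted in R 4.3.3 with limma 3.58.1, using a mean for each of 6 groups over 12 arrays (6 residual degrees of freedom), empirical Bayes moderation, two-sided p-values and Benjamini-Hochberg adjustment over all genes within a comparison. The fit was tested on simulated data. The replicates carry the label biological, and no source says that they were separate cultures, so p-values cover the spread between these arrays. Alternatives were a signal floor of 45 or 100, the arrays of 1 state alone, array weights, an intensity trend, median centring, mean of a gene's features, a replicate block, each library left out, a crossed replicate block (chosen after seeing the data), the 2 doubted ESC libraries left out, and the methods' rule of a fold of 1.5 in every pair.

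Hox genes called between EB groups are given on every EB array. Other genes come from 18 written lists and are named where called, or because they are HP1, Cdx or Evx genes or Aldh1a2. Lox, Fap, Thy1, Col3a1, Sox2, Skap1 and Snx11 were named after their values were seen. The members and lists were chosen with earlier results of these data known. Counts over a list are descriptions without a test. Except on the EB arrays alone, counts of called Hox genes in alternative fits stand without the share of all genes called. A higher or lower count there may go with a change over all genes, which is not given.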

Additional observations from a re-analysis of the deposited data

Results flagged for a closer look

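For 7 Hox genes the difference between HP1βKO and WT was larger in EBs than in ESCs by limma's test of the difference itself. The EB effect minus the ESC effect was 1.95 ± 0.23 for Hoxa9 (adjusted p = 0.0042), 1.92 ± 0.30 for Hoxa10 (adjusted p = 0.0208) and 2.26 ± 0.20 for Hoxa11 (adjusted p = 0.000937). It was 1.55 ± 0.26 for Hoxc9 (adjusted p = 0.0274) and 1.59 ± 0.23 for Hoxc10 (adjusted p = 0.0148). It was 1.87 ± 0.22 for Hoxd10 (adjusted p = 0.0042) and 2.12 ± 0.26 for Hoxd13 (adjusted p = 0.00525). With 1 array left out at a time, Hoxa10, Hoxc9 and Hoxc10 passed in 3, 4 and 4 of 8 fits, with highest adjusted p-values of 0.117, 0.143 and 0.094, and on the arrays compared alone Hoxc9 did not pass (adjusted p = 0.0712). In each case the ESC signals were under the limit of detection in both groups, so the ESC effect itself is a difference between signals near background, and 1 of the 4 ESC arrays involved, the library labelled ESC WT 2, had a Cbx5 level that opposed its label.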

How the results depend on the processing

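Direction was followed only for Hox genes called in the main fit, in 4 of the comparisons, and none of these reversed. Genes not called there were not followed, so a gained call could not be counted. Since the genes were picked by their call, a reversal was unlikely from the start, and its absence says little. Of the results for single Hox genes under these alternatives, 455 kept their side of the threshold and 66 lost it, and of the counts of called genes 114 stayed within 1.5 times and 30 did not. With only genes above a signal of 45, which leaves 12 Hox genes to test, 9 were called between EB HP1βKO and EB WT, 8 between EB HP1βKO and EB HP1αKO and 11 between EB HP1βKO and ESC HP1βKO. Of these 12 genes, 9 exceed 45 on EB HP1βKO arrays alone and so enter through the group where they are high, which makes these counts no support. Above a signal of 100 only Hoxb2 was left, so that these counts were 1, 0 and 1, with 1 each for EB against ESC in WT and in HP1αKO and 0 for the difference between states. Under the methods' rule on pairs of arrays the counts were 9, 8 and 10, with 2 for EB WT against ESC WT and 1 for EB HP1αKO against ESC HP1αKO, and the rule gives no value for the difference between states. Between EB HP1αKO and EB WT 1 gene was called on the EB arrays alone and 3 with array weights, and the cause was not tested. Without the 2 doubted ESC libraries 12 genes passed for the difference between states, and the cause was not tested. With 1 library left out at a time, the lone remaining array of a group being assumed to vary like the other groups, the counts ran from 7 to 10 between EB HP1βKO and EB WT, from 7 to 9 between EB HP1βKO and EB HP1αKO, from 3 to 6 for EB against ESC in WT, from 3 to 12 in HP1αKO, from 16 to 19 in HP1βKO and from 4 to 8 for the difference between states. They were 0 throughout between EB HP1αKO and EB WT and between ESC groups.

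With the replicate number as a block within each state (replicate block), 15 Hox genes were called between EB HP1βKO and EB WT, 13 between the EB knockouts, 10 for the difference between states and 0 between EB HP1αKO and EB WT, and no count moved by over 1.5 times. The correlation of replicate differences was between 0.22 and 0.41 in ESCs and between -0.47 and 0.11 in EBs, so the EB arrays share only a number. With the numbers of EB HP1βKO crossed, an alternative chosen after seeing the data, the replicate block called 14.

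Of the 13 Hox genes higher in EB HP1βKO than in EB WT, 5 exceeded a signal of 45 on no array. In ESCs no Hox gene did, so differences there are not detectable by these arrays.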
